A study of Rattus norvegicus with 9 samples.

Results

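A set of 10 enzyme genes of foreign-compound metabolism and antioxidant defence was followed in the cerebral cortex of rat pups on postnatal day 4: Cyp1b1, Sult1a1, Gsta1, Ephx1, Nqo1, Hmox1, Gstm1, Gstp1, Gclc and Gclm. Every probe set was taken whose platform annotation gave exactly 1 symbol among these 10 genes. That gave 11 of the 31099 probe sets in the file, with 2 for Gclc and 1 for each other gene. All 11 passed the filter on dim probe sets, which kept 21729 probe sets for testing.

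The study measured pup cortex after exposure to 4-methylimidazole (4-MeI), an imidazole compound formed when sugars are heated with ammonia compounds, as in caramel colouring, together with seizures of the mothers. Pups of the 2500 ppm group, of the 750 ppm group and of the control group came from Hsd:Sprague Dawley SD rats fed diet with 2500, 750 or 0 ppm of 4-MeI. Feeding of the first parents started before mating and went on without a break over several litters and generations, so exposed pups could receive the compound through the mother before and after birth. Each group has 3 arrays, and the F2b pups were taken from separate litters. The labels used here do not say which mothers had seizures, what sex the pups were or whether control mothers had any. Exposure and maternal seizures can therefore not be told apart.

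Foreign compounds are usually made more polar in steps: oxidation or hydrolysis by enzymes such as cytochromes P450 and epoxide hydrolases, then coupling to sulfate, glucuronate or glutathione. The aryl hydrocarbon receptor induces Cyp1 family genes and binds the dioxin response element. The transcription factor NRF2 binds the antioxidant response element and induces genes of glutathione synthesis, quinone reduction and heme breakdown. In brain much of this enzyme content lies in blood vessels, choroid plexus, meninges and glia, and less in neurons. Ptgds, lipocalin-type prostaglandin D synthase, is strongly expressed in the leptomeninges and serves here as the marker of meningeal tissue.

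Promoter sequence of 9 of the 10 genes, all but Hmox1, was taken from RefSeq on build GRCr8. The 250 bases before the start were searched on both strands for the antioxidant response element core TGACNNNGC, the dioxin response element core GCGTG and the AP-1 site TGANTCA, which can overlap the antioxidant core. Among 33469 promoter windows of the same length, 10.1% held TGACNNNGC, 25.9% held GCGTG and 6.34% held TGANTCA. These 4 windows set Sult1a1 and Cyp1b1, whose RNA was higher in exposed pups, beside Gclm and Gstp1. The latter are textbook NRF2 targets whose values overlapped between groups. Of the other members, Nqo1 (quinone reduction) was above control on every exposed array, and Hmox1 (heme breakdown) on every 2500 ppm array. Whether NRF2 had a part was not tested. Capitals mark motif matches, on either strand. Sult1a1 is at chr1:190706113-190706362 (minus strand) and holds none of the 3 motifs. Cyp1b1 is at chr6:21094315-21094564 (plus strand) and holds GCGTG on the minus strand 81 to 77 bases and on the plus strand 20 to 16 bases before the start. Gclm is at chr2:213031885-213032134 (plus strand) and holds the antioxidant core on the opposite strand, 172 to 164 bases before the start. Gstp1 is at chr1:210769706-210769955 (minus strand) and holds an antioxidant core 61 to 53 bases before the start, overlapping an AP-1 site, and GCGTG on the opposite strand at 238 to 234 bases.
Sult1a1: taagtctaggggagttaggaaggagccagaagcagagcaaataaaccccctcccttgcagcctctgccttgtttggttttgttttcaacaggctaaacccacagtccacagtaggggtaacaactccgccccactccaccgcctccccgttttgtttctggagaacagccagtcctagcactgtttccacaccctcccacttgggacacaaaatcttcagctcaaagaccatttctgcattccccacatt
Cyp1b1: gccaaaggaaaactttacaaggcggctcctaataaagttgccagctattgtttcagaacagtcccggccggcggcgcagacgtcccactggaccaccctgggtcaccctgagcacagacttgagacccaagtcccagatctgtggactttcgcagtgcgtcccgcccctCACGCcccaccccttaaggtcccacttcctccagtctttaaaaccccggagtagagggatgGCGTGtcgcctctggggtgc
Gclm: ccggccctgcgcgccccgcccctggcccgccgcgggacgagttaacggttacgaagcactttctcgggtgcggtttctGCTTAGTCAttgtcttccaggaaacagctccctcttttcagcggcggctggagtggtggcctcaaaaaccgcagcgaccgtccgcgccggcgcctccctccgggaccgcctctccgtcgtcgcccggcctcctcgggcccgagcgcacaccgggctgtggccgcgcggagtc
Gstp1: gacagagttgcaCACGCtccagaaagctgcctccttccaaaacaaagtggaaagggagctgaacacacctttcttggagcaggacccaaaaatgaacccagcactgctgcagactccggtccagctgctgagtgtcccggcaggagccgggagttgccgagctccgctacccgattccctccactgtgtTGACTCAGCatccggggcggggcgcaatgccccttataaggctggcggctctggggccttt

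A further window with an antioxidant core was that of the inner Ephx1 start, at chr13:95263118-95263367 (minus strand), where the core lay on the opposite strand 57 to 49 bases before the start and overlapped an AP-1 site. A second AP-1 site lay 209 to 203 bases before that start, and the window of the other Ephx1 start held no match. Nqo1 held GCGTG on the opposite strand 10 to 6 bases before its start, Gclc held GCGTG 93 to 89 bases before its start, and the windows of Gsta1 and Gstm1 held no match. A match describes these letters and not a bound site.
Ephx1, inner start: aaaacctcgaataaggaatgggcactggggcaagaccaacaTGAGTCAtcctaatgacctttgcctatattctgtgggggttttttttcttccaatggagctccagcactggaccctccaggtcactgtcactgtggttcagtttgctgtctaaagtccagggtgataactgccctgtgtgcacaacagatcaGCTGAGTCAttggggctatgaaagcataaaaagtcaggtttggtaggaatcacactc

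All values are log2 intensities from robust multi-array averaging (RMA), in which a difference of 1 is a doubling. Array medians lay between 7.67 and 7.71, and arrays of the same group correlated at 0.994 to 0.998 across probe sets. Control replicate 3 stood apart: it was the lowest of the 9 arrays for 6 of the 11 probe sets and the highest for both Gclc probe sets, and its Ptgds value was 10.94 against 12.15 and 12.40 in the other control arrays. Markers of neurons (10 of 10 genes) and of cortical excitatory neurons (8 of 9 genes on the array) passed the filter, with Tbr1, a defining cortical gene, below it. At 2500 ppm 6 neuron genes were higher and 4 lower (median 0.018), and 5 cortical excitatory genes were higher and 3 lower (median 0.19), with none called. At an unadjusted p under 0.05, 1 neuron gene was lower, and 2 cortical genes were higher and 1 lower, against 16% of all probe sets in either direction. Markers of several other tissues moved with exposure. All 22 meningeal genes tested were higher at both concentrations. Their summed linear intensity ranged from 13114 to 25992 in control, 36529 to 41165 at 750 ppm and 29773 to 36512 at 2500 ppm. Of the 9 choroid plexus and ependyma genes, 8 were higher at 2500 ppm (median 1.22), and at 750 ppm 5 were higher and 4 lower (median 0.058), with none at an unadjusted p under 0.05. Their summed intensity was 858.24 to 1025.7 in control, 1057.6 to 1789.7 at 750 ppm and 5226.6 to 21306 at 2500 ppm, and Ttr carried most of it at 2500 ppm. Without Ttr the sum was 696.33 to 783.64 in control, 760.82 to 816.3 at 750 ppm and 969.29 to 2632.5 at 2500 ppm. All 14 endothelial genes were higher at both concentrations, with medians of 0.33 at 2500 ppm and 0.35 at 750 ppm, and all 4 blood cell genes were too. Microglia and macrophage genes were higher in 15 of 15 at 2500 ppm (median 0.18) and in 14 of 15 at 750 ppm (median 0.25), and none was called. Their summed intensity was 3440.6 to 4101.4 in control, 4171.3 to 5614.9 at 750 ppm and 4411.5 to 4587.6 at 2500 ppm. All 13 striatal genes tested were lower at 2500 ppm, with a median difference of -1.10, and 11 were lower at 750 ppm, with a median of -0.43. RMA gives no value of 0, so no marker could be shown absent. In tissue of mixed cells, more cells of a type and more RNA per cell cannot be told apart.

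Of the 10 enzymes, Sult1a1 and Cyp1b1 rose in the 2500 ppm pups and no enzyme fell. These were 2 of 11 probe sets at an adjusted p under 0.05 in limma (Benjamini-Hochberg over all 21729 probe sets), where 0.281% of all probe sets were called higher and 0.686% were called in either direction. At an unadjusted p under 0.05, 5 of 11 were higher against 6.89% of all probe sets. The arrays of 6 of 11 lay wholly above the control arrays, against 9.87% of all. At 750 ppm none of the 11 was called, where 0.0092% of all probe sets were called, and 6 were higher at an unadjusted p under 0.05 against 5.77% of all (10.1% in either direction). At 750 ppm 5 of the 11 lay wholly above control, against 7.61% of all, and the same 5 (Sult1a1, Cyp1b1, Gsta1, Ephx1 and Nqo1) had all 6 exposed arrays above all 3 control arrays, which held for 3.29% of all probe sets. The median difference of the 11 was 0.24 at 2500 ppm and 0.23 at 750 ppm, against 0.0070 and 0.0023 over all probe sets. Both comparisons use the same 3 control arrays, so they are not independent. The 10 genes and the lists of other enzymes were chosen with earlier results of these data known. Their shares beside those of all probe sets are therefore descriptions and no test of the set. The meningeal, endothelial, blood cell and microglia and macrophage markers above moved the same way. Their part in these changes was not tested beyond the fits with Ptgds or Ttr as a further term.

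**Figure D1:**
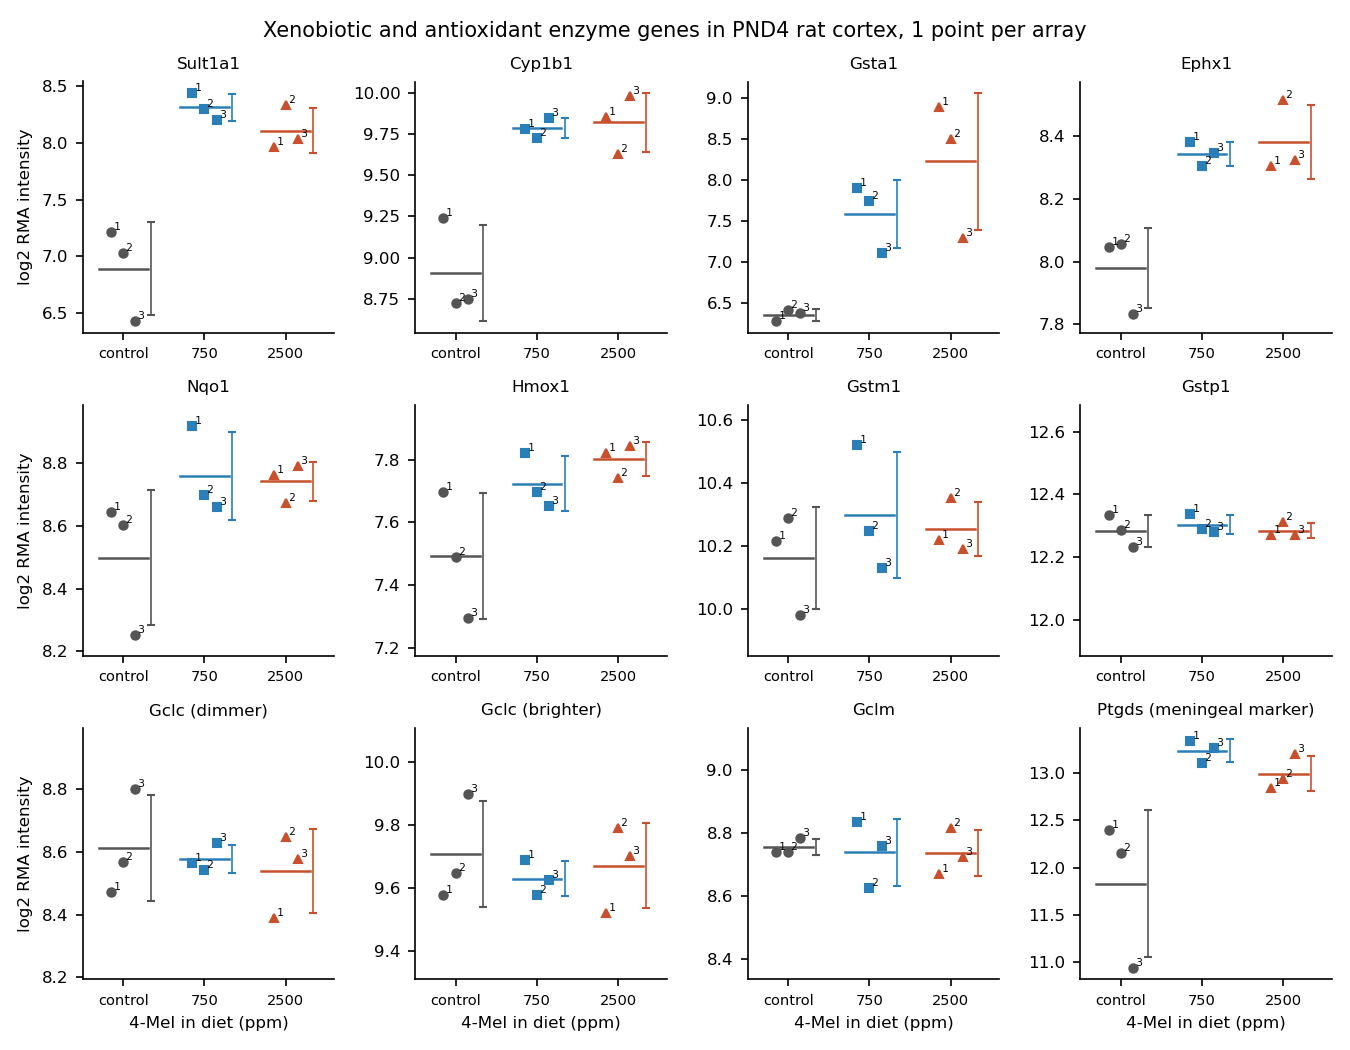
Log2 RMA intensity of each of the 11 probe sets on each array, in dose order (control, 750 ppm, 2500 ppm), and of Ptgds in the last panel, with 1 numbered point per array (its replicate), a line at each group mean and a bracket of 1 SD either side (n = 3). All 6 exposed arrays lie above the 3 control arrays for Sult1a1, Cyp1b1, Gsta1, Ephx1 and Nqo1, while Gstp1, Gclc and Gclm overlap between groups.

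Sult1a1 encodes a phenol sulfotransferase, which couples sulfate to phenols and small aromatic alcohols. Its log2 values were 7.22, 7.03 and 6.43 in the control arrays, 8.44, 8.30 and 8.20 at 750 ppm, and 7.96, 8.33 and 8.03 at 2500 ppm. The exposed arrays all lay above the control arrays, and the control arrays spread most. Control replicate 3, at 6.43, was close to the bound of the filter on dim probe sets (6.35), which makes the fold below less certain. Sult1a1 averaged 8.11 ± 0.20 at 2500 ppm against 6.89 ± 0.41 in control (SD, n = 3 each). The difference was 1.22 (SE 0.19), or 2.32-fold with a 95% interval of 1.74 to 3.11, and the limma adjusted p was 0.0295. At 750 ppm it was 1.42 (SE 0.19, limma adjusted p = 0.145), nominally larger than at 2500 ppm. The 2500 ppm minus 750 ppm difference of -0.21 had an interval of -0.62 to 0.21. The 2500 ppm call was lost when control replicate 2 (adjusted p = 0.0777) or any 1 of the 2500 ppm arrays (adjusted p = 0.0848, 0.108 and 0.0851) was left out, while the difference stayed between 0.99 and 1.38 over the arrays left out in turn.

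Cyp1b1 encodes a cytochrome P450 that oxidises polycyclic aromatic hydrocarbons, estrogens and retinoids, and it is a known target of the aryl hydrocarbon receptor. Its log2 values were 9.24, 8.72 and 8.75 in control, 9.78, 9.73 and 9.85 at 750 ppm, and 9.86, 9.63 and 9.98 at 2500 ppm. The exposed arrays of both concentrations all lay above control, with like means of 9.79 at 750 ppm and 9.82 at 2500 ppm. Their range was 0.12 at 750 ppm and 0.35 at 2500 ppm. Cyp1b1 averaged 9.82 ± 0.18 at 2500 ppm against 8.90 ± 0.29 in control (SD, n = 3 each). The difference was 0.92 (SE 0.14), a 1.89-fold change with an interval of 1.52 to 2.35, and the limma adjusted p was 0.0300. At 750 ppm the difference was 0.88 (SE 0.14, limma adjusted p = 0.201). The 2500 ppm minus 750 ppm difference was 0.035 with an interval of -0.28 to 0.35. Leaving out control replicate 2 (adjusted p = 0.0992), control replicate 3 (0.0866) or any 1 of the 2500 ppm arrays (0.104, 0.0705 and 0.0915) ended the 2500 ppm call.

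Cyp1a1, the classical target of the same receptor, was too dim to test, at a mean log2 value of 6.28 against the filter bound of 6.35. The receptor gene Ahr itself was also below it, at 5.96. Cyp1a2 passed the filter and differed by 0.22 (SE 0.11, limma adjusted p = 0.367) at 2500 ppm. Tiparp, another target of the receptor, differed by -0.049 (SE 0.070, limma adjusted p = 0.765).

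Ephx1 encodes microsomal epoxide hydrolase, which opens reactive epoxides to diols. Its values were 8.05, 8.06 and 7.83 in control, 8.38, 8.30 and 8.35 at 750 ppm, and 8.30, 8.52 and 8.32 at 2500 ppm. The control arrays were the lowest 3 of the 9, with a gap of 0.25 to the lowest exposed array of each concentration. The difference was 0.40 (SE 0.083) at 2500 ppm and 0.36 (SE 0.083) at 750 ppm, with limma adjusted p = 0.0665 and 0.201, so neither was called.

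Gsta1 encodes an alpha class glutathione S-transferase, which couples glutathione to electrophiles. It showed the widest spread between exposed arrays of the 11 probe sets. Its log2 values were 6.28, 6.42 and 6.38 in control, 7.90, 7.74 and 7.11 at 750 ppm, and 8.89, 8.51 and 7.29 at 2500 ppm. Every exposed array was above every control array, but replicate 3 of each concentration was well below the other exposed arrays of its group. Gsta1 averaged 8.23 ± 0.84 at 2500 ppm against 6.36 ± 0.07 in control (SD, n = 3 each). The difference was 1.87 (SE 0.36), and at a limma adjusted p of 0.0573 it was not called. At 750 ppm the difference was 1.23 (SE 0.36, limma adjusted p = 0.286). The direct difference between concentrations was 0.64, with an interval of -0.16 to 1.45 (unadjusted p = 0.105). The control values lay around the filter bound of 6.35, where there is no detection call and RMA compresses differences, so no fold is given and the difference may be understated. Without 2500 ppm replicate 3 the 2500 ppm difference was 2.34 and was called (adjusted p = 0.0132), and without 750 ppm replicate 3 it was called as well (adjusted p = 0.0352). Probes of alpha class genes may bind RNA of near-identical relatives, so the signal may not come from Gsta1 alone.

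Gsta1 varied across arrays with the choroid plexus marker Ttr, the transthyretin gene, more than with Ptgds. Ttr was 7.70, 7.34 and 8.17 in control, 9.29, 10.01 and 7.91 at 750 ppm, and 14.19, 13.97 and 12.06 at 2500 ppm. Replicate 3 was the lowest of each exposed group for both Ttr and Gsta1. Over the 9 arrays r was 0.868 (exact permutation p = 0.00309, adjusted over the 11 probe sets 0.0340) and Spearman's rho was 0.850 (exact p = 0.00607, adjusted 0.0668). Without the 2 arrays farthest from the median of Ttr, 2500 ppm replicates 1 and 2, r was 0.625 (exact p = 0.121) and rho was 0.679. The relation thus rests at least in part on those arrays. With each array left out in turn, r ran from 0.801 to 0.916. Deviations from the group means correlated at 0.878, and in the 6 exposed arrays r was 0.778 (exact p = 0.075). With Ttr as a further term in the limma model the Gsta1 difference at 2500 ppm was -0.97 (SE 0.59, limma adjusted p = 0.547), against 1.87 (SE 0.36) without it. Ttr was 12.06 or more on the 2500 ppm arrays and 8.17 or less in control. The Ttr term thus largely overlaps with the 2500 ppm group, and this model cannot tell the 2 well apart. None of the 11 was called at 2500 ppm in that model, which called 0% of all probe sets, and 1 of 11 passed at an unadjusted p under 0.05 against 12.3% of all. For 750 ppm minus control the same model also called none of the 11 and 0% of all. There 4 of 11 (Gsta1, Cyp1b1, Sult1a1 and Ephx1) passed at an unadjusted p under 0.05, against 13.7% of all. How far choroid plexus tissue in the sample has a part in the Gsta1 values was not tested beyond these fits.

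Nqo1 encodes the quinone reductase, and Hmox1 encodes the inducible heme oxygenase. Nqo1 was 8.64, 8.60 and 8.25 in control, 8.92, 8.70 and 8.66 at 750 ppm, and 8.76, 8.67 and 8.79 at 2500 ppm. The gap to control was 0.02 to 0.03 at its narrowest, and without control replicate 3 the difference from control was 0.12 at 2500 ppm and 0.14 at 750 ppm. The Nqo1 difference was 0.24 (SE 0.11, limma adjusted p = 0.325) at 2500 ppm and 0.26 (SE 0.11, limma adjusted p = 0.474) at 750 ppm. Hmox1 was 7.70, 7.49 and 7.29 in control, 7.82, 7.70 and 7.65 at 750 ppm, and 7.82, 7.74 and 7.84 at 2500 ppm. Its 2500 ppm arrays lay above control and its 750 ppm arrays overlapped with control. The Hmox1 difference was 0.31 (SE 0.098, limma adjusted p = 0.174) at 2500 ppm and 0.23 (SE 0.098, limma adjusted p = 0.479) at 750 ppm. Without control replicate 3 it was 0.21 at 2500 ppm and 0.13 at 750 ppm.

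Gstm1 and Gstp1 encode the mu and pi class glutathione S-transferases. Gstm1 was 10.22, 10.29 and 9.98 in control, 10.52, 10.25 and 10.13 at 750 ppm, and 10.22, 10.35 and 10.19 at 2500 ppm, with overlapping groups. Its difference at 2500 ppm was 0.09 with an interval of -0.16 to 0.35. Gstp1 held the tightest values of the 11 probe sets, between 12.23 and 12.34 on all 9 arrays, and its 2500 ppm mean of 12.28 ± 0.02 stood against 12.28 ± 0.05 in control (SD, n = 3 each). The interval of its difference at 2500 ppm was -0.12 to 0.12, and at 750 ppm -0.10 to 0.14. As in other gene families of like sequence, mu class signal may be shared between relatives.

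Gclc and Gclm encode the catalytic and modifier subunits of glutamate-cysteine ligase, which sets the rate of glutathione synthesis. The brighter Gclc probe set was 9.58, 9.65 and 9.90 in control, 9.69, 9.58 and 9.63 at 750 ppm, and 9.52, 9.79 and 9.70 at 2500 ppm. The dimmer Gclc probe set was 8.47, 8.57 and 8.80 in control, 8.56, 8.54 and 8.63 at 750 ppm, and 8.39, 8.65 and 8.58 at 2500 ppm. In both, control replicate 3 was the highest array, and the groups overlapped. The 2 probe sets followed each other over the arrays with r = 0.911 (exact permutation p = 0.000672) and rho = 0.883 (exact p = 0.00308), and r was 0.710 without the 2 farthest arrays. At 2500 ppm the brighter probe set differed by -0.036 (interval -0.26 to 0.18) and the dimmer by -0.076 (interval -0.29 to 0.14). Gclm was 8.74, 8.74 and 8.79 in control, 8.83, 8.62 and 8.76 at 750 ppm, and 8.67, 8.82 and 8.73 at 2500 ppm, and differed by -0.019 (interval -0.18 to 0.14). The intervals of these 3 probe sets, and that of Gstp1, end below the 2500 ppm differences of Sult1a1, Cyp1b1 and Gsta1.

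The 2500 ppm and 750 ppm groups were also compared directly. None of the 11 probe sets was called, where 0.322% of all probe sets were, and none passed at an unadjusted p under 0.05, where 12.6% of all did. The median difference of the 11 was -0.0033, against -0.0063 over all probe sets. Gsta1 differed by 0.64 and Sult1a1 by -0.21, and the other 9 differed by less than 0.09 in size.

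**Figure D2:**
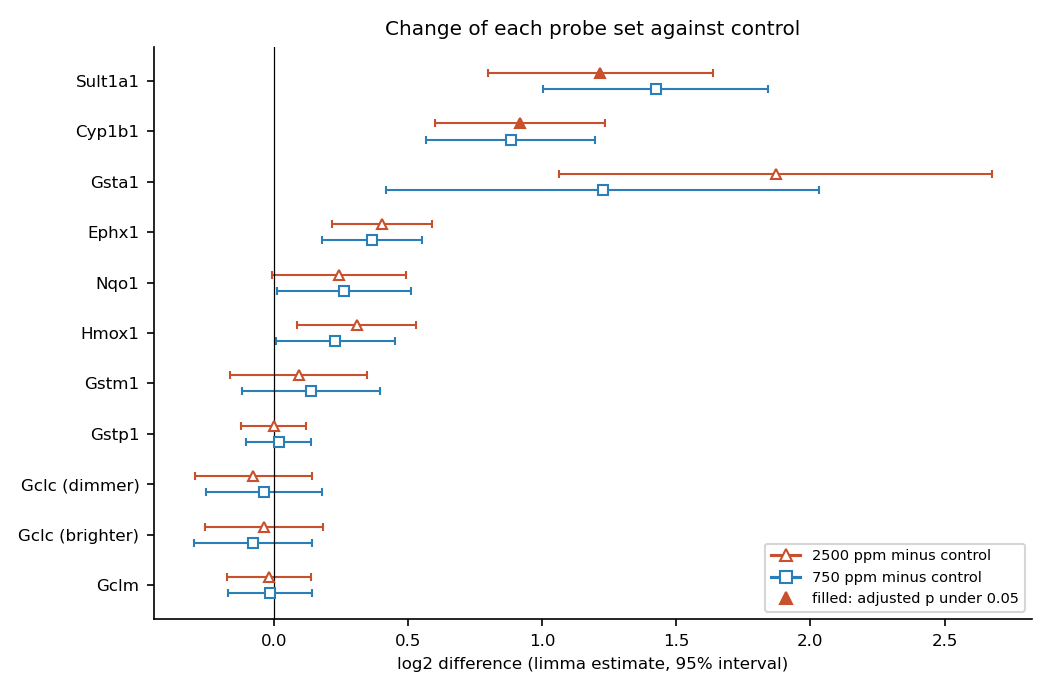
Log2 difference from control of each of the 11 probe sets at 750 ppm and 2500 ppm, with 95% intervals from limma, genes in rows and filled markers for an adjusted p under 0.05. Sult1a1, Cyp1b1, Gsta1, Ephx1 and Hmox1 have intervals above 0 at 2500 ppm, with that of Gsta1 (1.87) measured from control values at the filter bound, while the intervals of Gstm1, Gstp1, Gclc and Gclm include 0 at both concentrations.

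Ptgds stood at 12.40, 12.15 and 10.94 in the control arrays, 13.33, 13.10 and 13.27 at 750 ppm, and 12.84, 12.93 and 13.20 at 2500 ppm. All exposed arrays lay above control, and control replicate 3 was far below the other arrays. The difference was 1.16 (SE 0.31, limma adjusted p = 0.124) at 2500 ppm and 1.40 (SE 0.31, limma adjusted p = 0.201) at 750 ppm. Over the 9 arrays Ptgds correlated at 0.974 with the mean of the other 21 meningeal genes and at 0.380 with Ttr.

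Of the 11 enzyme probe sets, 5 followed Ptgds across the 9 arrays. In limma, with Ptgds as the only term, Sult1a1 rose by 0.88 per unit of Ptgds (SE 0.096, adjusted p = 0.000945), Cyp1b1 by 0.56 (SE 0.097, adjusted p = 0.0139), Ephx1 by 0.25 (SE 0.046, adjusted p = 0.0183), Nqo1 by 0.22 (SE 0.039, adjusted p = 0.0174) and Hmox1 by 0.21 (SE 0.042, adjusted p = 0.0275). These 5 of 11 compare with 3.33% of all probe sets called with a positive slope and 3.98% called in either direction. The 11 were chosen with earlier results of these data known, so this comparison is descriptive. Gsta1 had a slope of 0.72 (SE 0.32, adjusted p = 0.223) and Gstm1 one of 0.12 (SE 0.055, adjusted p = 0.237). The slopes of Gstp1, Gclm and both Gclc probe sets lay between -0.083 and 0.023. Of the meningeal genes other than Ptgds, 19 of 21 had called positive slopes in the same fit, and of the endothelial genes 8 of 14. Of the 15 microglia and macrophage genes tested, 2 had called positive slopes, the macrophage genes Mrc1 (0.82) and Lyve1 (1.04). Without control replicate 3, the slope was 1.16 for Sult1a1, which stayed called (limma adjusted p = 0.0349), and 0.89 for Cyp1b1 (0.0579), which did not. It was 0.30 for Ephx1, 0.18 for Hmox1 and 0.16 for Nqo1 (limma adjusted p = 0.369, 0.707 and 0.711).

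**Figure D3:**
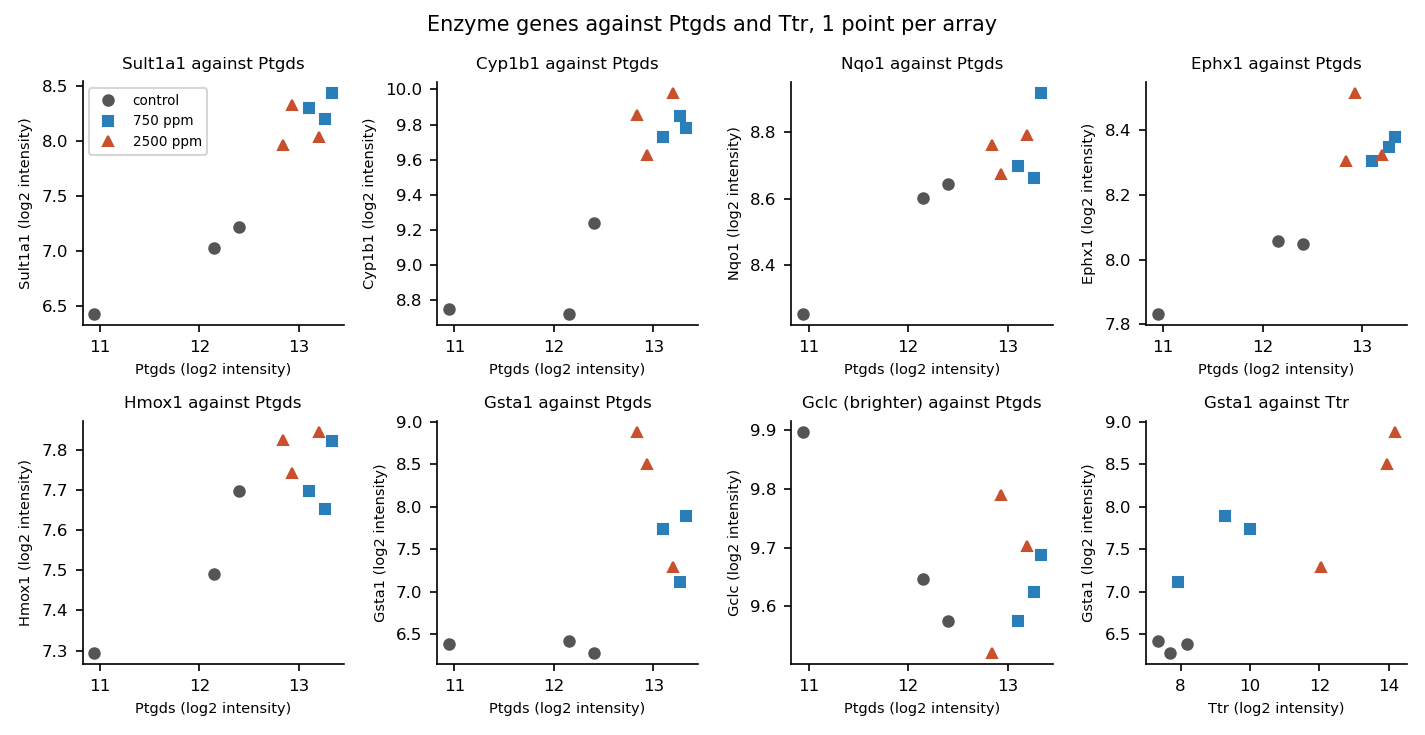
Log2 intensity of Sult1a1, Cyp1b1, Nqo1, Ephx1, Hmox1, Gsta1 and the brighter Gclc probe set (vertical axes) against that of Ptgds (horizontal axes), and of Gsta1 against Ttr in the last panel, for the 9 arrays, marked by diet group. Control replicate 3, with Ptgds at 10.94, lies far to the left, and the 6 exposed arrays lie together on the right, at 12.84 to 13.33. In the last panel the highest Gsta1 values are those of the 2 arrays with Ttr at 14.19 and 13.97.

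Over the 9 arrays the Pearson correlation with Ptgds was 0.948 for Sult1a1 (exact permutation p = 0.000474, adjusted over the 11 probe sets 0.00521), 0.911 for Nqo1 (exact p = 0.00136, adjusted 0.00555), 0.898 for Ephx1 (exact p = 0.00254, adjusted 0.00697), 0.887 for Hmox1 (exact p = 0.00617, adjusted 0.0136) and 0.884 for Cyp1b1 (exact p = 0.00151, adjusted 0.00555). Spearman's rho for these was 0.850 for Sult1a1 (exact p = 0.00607), 0.803 for Ephx1 (exact p = 0.0122), 0.783 for Nqo1 (exact p = 0.0172), 0.717 for Cyp1b1 (exact p = 0.0369) and 0.544 for Hmox1 (exact p = 0.136). None of the rho values passed adjustment over the 11 (lowest adjusted p = 0.0632). The arrays separate by exposure in both Ptgds and most of these genes, so the pooled values mix the difference between groups with the relation among arrays of a group.

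Without the 2 arrays farthest from the median of Ptgds, control replicates 3 and 2, r was 0.863 for Sult1a1 (exact p = 0.0246) and 0.819 for Cyp1b1 (exact p = 0.0385). It was 0.664 for Ephx1, 0.553 for Nqo1 and 0.215 for Hmox1 (exact p = 0.133, 0.201 and 0.673), so these 3 relations rest at least in part on those arrays. Spearman's rho without them was 0.679 for Sult1a1 and only 0.429 for Cyp1b1. Control replicate 1 was then the only control array left. Since r was lower again in the exposed arrays alone, the values of Sult1a1 and Cyp1b1 rest at least in part on that array. Deviations from the group means correlated with those of Ptgds at 0.857 for Nqo1, 0.852 for Hmox1, 0.844 for Sult1a1, 0.680 for Ephx1 and 0.566 for Cyp1b1. Among the 6 exposed arrays alone, r was 0.446 for Sult1a1, 0.409 for Nqo1, 0.307 for Cyp1b1, -0.120 for Hmox1, -0.166 for Ephx1 and -0.831 for Gsta1 (exact p = 0.0486, adjusted 0.535).

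With 1 mean per group and Ptgds as a further term, none of the 11 probe sets had a called slope, where 0.354% of all did. At an unadjusted p under 0.05, 3 of 11 had a positive slope against 11.3% of all: Sult1a1 0.49 (SE 0.12, adjusted p = 0.118), Nqo1 0.28 (SE 0.077, adjusted p = 0.141) and Hmox1 0.24 (SE 0.071, adjusted p = 0.167). In the same limma fit the 2500 ppm minus control difference was 0.65 (SE 0.18, adjusted p = 0.425) for Sult1a1, against 1.22 without Ptgds. It was 0.64 (adjusted p = 0.449) for Cyp1b1, against 0.92, and 0.23 (adjusted p = 0.580) for Ephx1, against 0.40. For Nqo1 it was -0.080 and for Hmox1 0.034, while for Gsta1 it was 2.19 (adjusted p = 0.425), against 1.87. None of the 11 was called in that fit, which called 0% of all probe sets, and 3 of 11 passed at an unadjusted p under 0.05 against 9.08% of all. Ptgds spread most in control, with an SD of 0.78 against 0.12 at 750 ppm and 0.19 at 2500 ppm. With each array left out in turn, the within-group slope of Sult1a1 ran from 0.22 to 0.54. That of Nqo1 ran from 0.26 to 0.29 and that of Hmox1 from 0.17 to 0.35. Their limma adjusted p reached 0.9997 in these fits, so it depends on which arrays are kept.

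**Figure D4:**
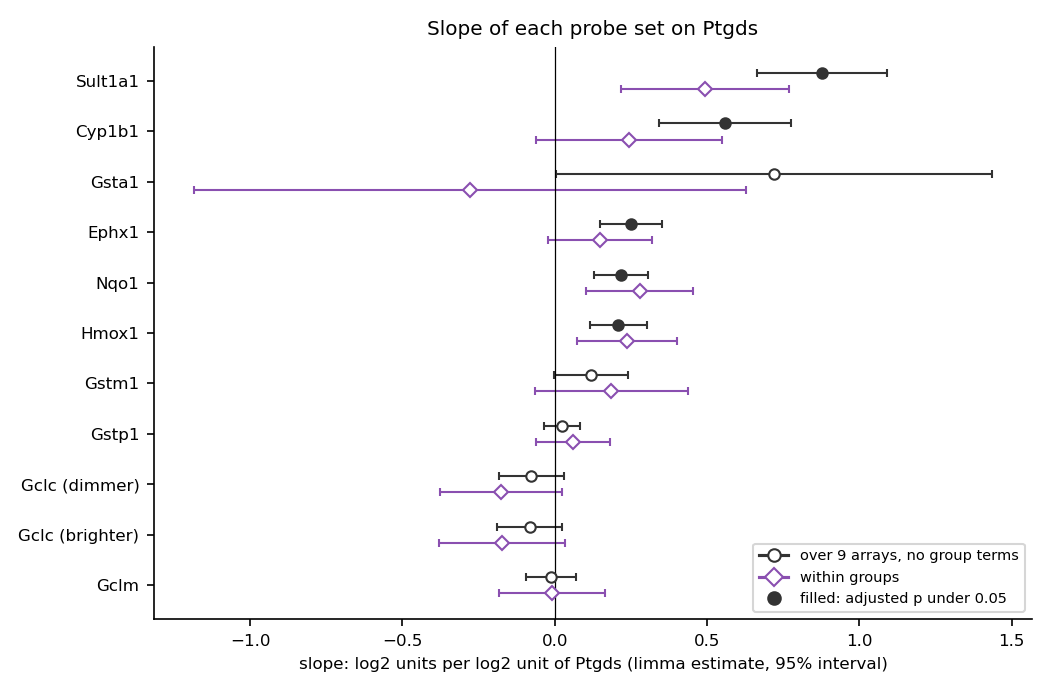
Slope of each probe set per unit of log2 Ptgds, over the 9 arrays and among arrays of the same group, with 95% intervals from limma and filled markers for an adjusted p under 0.05. Over the 9 arrays Sult1a1 (0.88), Gsta1 (0.72), Cyp1b1 (0.56), Ephx1, Nqo1 and Hmox1 have intervals above 0, and within groups Sult1a1 (0.49), Nqo1 (0.28) and Hmox1 (0.24) do.

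By likeness of pattern (Pearson r over the 9 arrays, among genes with 1 symbol that passed the filter), Sult1a1 was nearest to Slc13a4 (0.976), Ogn (0.974) and Gypc (0.972). Cyp1b1 was nearest to Cd14 (0.981), Tubb6 (0.979) and Myd88 (0.974). Ephx1 was nearest to Fmod, Plin3 and Timp1, and Nqo1 to Hhex (0.992), Gmds and Kifbp. Hmox1 was nearest to Pdzd11, Nherf1 and Atg5. Gsta1 was nearest to Nts (0.980), Car2 (0.976) and Atp6v0e1 (0.950). Ptgds ranked 35 for Sult1a1, 98 for Ephx1, 129 for Cyp1b1, 186 for Hmox1, 187 for Nqo1 and 1176 for Gsta1. The others were nearest to Ctnnbl1, Aup1 and Rfc1 (Gstm1), to Cdc34, Mrpl51 and Tm9sf4 (Gstp1), to Mtmr3, Plppr2 and Zxda (the brighter Gclc probe set) and to Cfap410, Ccdc174 and Pacs2 (Gclm). These are descriptions of the nearest of many genes, over the same 9 arrays.

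Other enzymes of the same routes were read at the brightest probe set of each gene. Of the phase I and hydrolysis genes, 19 of 28 were tested, and at 2500 ppm 15 were higher and 4 lower, with a median of 0.13 and none called (at an unadjusted p under 0.05, 4 were higher and 1 was lower, against 6.89% of all probe sets higher and 16% in either direction). At 750 ppm 14 were higher and the median was 0.051. Of all probe sets, 52.2% were higher at 2500 ppm and 50.9% at 750 ppm, and 0.686% and 0.0092% were called. These shares also stand beside the counts of the lists that follow. The lowest p-values at 2500 ppm were those of Aldh1a1, a retinal dehydrogenase (0.82, limma adjusted p = 0.136), Cyp26b1, which breaks down retinoic acid (-0.61, 0.166), Fmo1, a flavin monooxygenase (0.41, 0.171), and Aldh2, the mitochondrial aldehyde dehydrogenase (0.21, 0.201). Of these, Fmo1 (slope 0.38, adjusted p = 0.00472) and Aldh2 (0.14, adjusted p = 0.0417) followed Ptgds over the 9 arrays. They were the 2 of 19 with a called slope, against 3.33% of all probe sets called with a positive slope.

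Of the conjugation genes, 19 of 30 were tested, with 16 higher and 3 lower at 2500 ppm (median 0.12), 17 higher at 750 ppm (median 0.12) and none called (2 higher at an unadjusted p under 0.05 at 2500 ppm, against 6.89% of all probe sets, and 3 at 750 ppm, against 5.77%). The lowest p-values at 2500 ppm were those of Gstm2 (0.36), Gstz1 (0.22), Gsto1 (-0.12) and Mgst2 (0.18). Tpmt, the thiopurine methyltransferase gene, had a called slope on Ptgds (0.13, limma adjusted p = 0.0472). It was 1 of 19, against 3.33% of all probe sets called with a positive slope.

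Of the NRF2, glutathione and antioxidant genes, 30 of 37 were tested, with 21 higher at 2500 ppm (median 0.052), 24 higher at 750 ppm (median 0.074) and none called. Sod3, extracellular superoxide dismutase, came nearest to the threshold at 2500 ppm, at 0.44 (SE 0.10, limma adjusted p = 0.0915). Abcc1 (-0.30), Pgd (0.22) and Gpx1 (0.24) followed. Blvrb, a biliverdin reductase (slope 0.22, limma adjusted p = 0.0207), and Pgd, of the pentose phosphate pathway (0.19, adjusted p = 0.0344), followed Ptgds. They were 2 of 30, against 3.33% of all probe sets called with a positive slope. Nfe2l2, which encodes NRF2, differed by 0.087 (SE 0.10) and its repressor Keap1 by 0.073 (SE 0.052) at 2500 ppm (limma adjusted p = 0.711 and 0.524).

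Of the receptors that sense foreign compounds and their partners, 4 of 10 were tested, and 1 was higher at 2500 ppm, with a median of -0.077. Rxra differed by 0.20, Arnt2 by -0.24 and Arnt by -0.11, and none was called. At an unadjusted p under 0.05, the receptors held 2 of 4 in either direction and the NRF2 list 5 of 30, against 16% of all probe sets.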

How the data were processed

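RNA from cortex of 9 pups was hybridised, 1 Affymetrix Rat Genome 230 2.0 array per pup. The deposited values are log2 RMA intensities, made with the affy package per the submitters' processing notes, with no version given and no detection call. Quantile normalization by RMA hides changes in total RNA. The number of arrays limits the precision.

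The 57 AFFX probe sets and the 30% with the lowest mean (9313, below 6.35) were left out, and 21729 were fitted in limma 3.58.1 under R 4.3.3 with 1 mean per group over all 9 arrays, or with Ptgds as a numeric term. All tests were two-sided, with Benjamini-Hochberg adjustment within each contrast and a threshold of 0.05. Correlations had exact permutation tests over the pairings of the arrays. Groups were compared in limma, where an exact permutation test of 3 arrays against 3 could not go below p = 0.1. Replicates are pups of separate litters.

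Named genes were the members, the 3 genes most alike to each, list genes that were called and up to 4 others per list with the smallest p at 2500 ppm. Cyp1a1, Cyp1a2, Ahr, Tiparp, Nfe2l2, Keap1, Mrc1 and Lyve1 were added after their values were seen. The members and lists were chosen with earlier results of these data known. The platform annotation gave 1 symbol to 20826 probe sets, several to 436 and none to 9780. On simulated data of 21729 probe sets for the 2500 ppm comparison, 90% of 2-fold changes and 77% of 1.5-fold changes were called. The simulated noise was independent between probe sets and arrays, with residual SDs shuffled over probe sets. It held no shared variation of an array such as control replicate 3, so these shares need not hold for the real arrays. There Ptgds differed by 1.16 at 2500 ppm and was not called (limma adjusted p = 0.124).

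Replicate numbers were tested as a pairing: deviations of same-numbered arrays correlated between -0.21 and 0.31, so the numbers were not treated as pairs. The alternatives were other filters, a second normalization, variance models, array weights, arrays left out, and Ptgds or Ttr as a further term.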

Additional observations from a re-analysis of the deposited data

How the results depend on the processing

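Sult1a1 and Cyp1b1 kept their direction at 2500 ppm under every alternative run, while their calls did not always hold. Of the 11 probe sets, 2 were called at 2500 ppm in limma with no filter, with the 50% filter and with a trended and robust variance. The count was 3 with arrays centred on their median, a second quantile normalization, a replicate block or only the 2 groups compared, and 4 with array weights. It was 0 with Ptgds or with Ttr as a further term, and leaving out arrays gave 0 to 3. Gsta1 was called with the replicate block (adjusted p = 0.0462), array weights (0.00772) and only the 2 groups (0.0487), and Ephx1 with centring (0.0435), the second normalization (0.0475) and weights (0.0120). At 750 ppm the count was 0 in most settings, 3 with array weights, and 0 to 2 with arrays left out. There Cyp1b1 and Sult1a1 were called without control replicate 1 (adjusted p = 0.0310 for both), and Sult1a1 without 750 ppm replicate 3 (0.0453). The count of slopes on Ptgds over 9 arrays was 5, 3 with the replicate block (Hmox1 0.0589 and Ephx1 0.0526 no longer called) and 0 to 5 with arrays left out, with 1 left in the absence of control replicate 3 and 0 when 750 ppm replicate 3 was dropped with it. The count of correlations with Ptgds was 5, 2 to 5 with arrays left out (2 without control replicate 3) and 0 in the 6 exposed arrays. Leaving out those 2 arrays together, using the exposed arrays alone and using Ttr for Gsta1 were chosen after seeing the data. The cause of each change was not tested, beyond the fewer arrays or further term that define it. Ptgds has 1 probe set, so no second one could be used.

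Of 1154 values of single probe sets under these alternatives, 98 turned direction, and 2 of those belonged to called values, the correlations of Ephx1 and Hmox1 with Ptgds in the 6 exposed arrays. The turned values follow. With arrays centred on their median, in the 2500 ppm minus control difference Gclm stood at 0.0019 and Gstp1 at 0.021. In the 750 ppm minus control difference Gstp1 stood at -0.0084. In the 2500 ppm minus 750 ppm difference Gclm stood at 0.045, the dimmer Gclc probe set at 0.0082, Gstm1 at 0.0028, Nqo1 at 0.031 and Gstp1 at 0.029. With a second quantile normalization, in the 2500 ppm minus control difference Gclm stood at 0.0014 and Gstp1 at 0.0058. In the 2500 ppm minus 750 ppm difference Gclm stood at 0.044, the dimmer Gclc probe set at 0.0017 and Nqo1 at 0.028. With array weights, in the 2500 ppm minus control difference Gclm stood at 0.0035, the dimmer Gclc probe set at 0.058 and the brighter Gclc probe set at 0.092. In the 750 ppm minus control difference the dimmer Gclc probe set stood at 0.063, the brighter Gclc probe set at 0.021 and Gstp1 at -0.018. The 2500 ppm minus 750 ppm difference of Gclm stood at 0.036. With Ptgds as a further term, in the 2500 ppm minus control difference the dimmer Gclc probe set stood at 0.13, the brighter Gclc probe set at 0.17, Gstm1 at -0.12 and Nqo1 at -0.080. In the 750 ppm minus control difference Hmox1 stood at -0.10, the dimmer Gclc probe set at 0.21, the brighter Gclc probe set at 0.17, Gstm1 at -0.12, Nqo1 at -0.13 and Gstp1 at -0.062. In the 2500 ppm minus 750 ppm difference the brighter Gclc probe set stood at -0.00068 and Nqo1 at 0.050. With Ttr as a further term, in the 2500 ppm minus control difference Gsta1 stood at -0.97, Gclm at 0.070, the dimmer Gclc probe set at 0.029 and Gstm1 at -0.096. In the 750 ppm minus control difference Gclm stood at 0.0052. In the 2500 ppm minus 750 ppm difference Gsta1 stood at -1.53, Gclm at 0.065, the dimmer Gclc probe set at 0.040 and Nqo1 at 0.11. With the mean of the meningeal list in place of Ptgds, in the slope on Ptgds within groups Gclm stood at 0.018. With the 6 exposed arrays alone, in the correlation with Ptgds Ephx1 stood at -0.17, the dimmer Gclc probe set at 0.50, the brighter Gclc probe set at 0.22, Gclm at 0.38, Gsta1 at -0.83 and Hmox1 at -0.12.

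With arrays left out, the values of probe sets that turned direction ran, for the 2500 ppm minus control difference, from -0.15 to 0.018 for the dimmer Gclc probe set, -0.10 to 0.060 for the brighter Gclc probe set, -0.059 to 0.015 for Gclm and -0.026 to 0.025 for Gstp1. In the 750 ppm minus control difference, the values ran from -0.11 to 0.058 for the dimmer Gclc probe set, -0.14 to 0.020 for the brighter Gclc probe set, -0.063 to 0.042 for Gclm and -0.0064 to 0.044 for Gstp1. For the 2500 ppm minus 750 ppm difference, the values ran from -0.045 to 0.13 for Cyp1b1, -0.030 to 0.076 for Ephx1, -0.095 to 0.034 for the dimmer Gclc probe set, -0.018 to 0.12 for the brighter Gclc probe set, -0.061 to 0.044 for Gclm, -0.13 to 0.065 for Gstm1 and -0.067 to 0.063 for Nqo1. In the slope on Ptgds over 9 arrays, the values ran from -0.092 to 0.063 for the dimmer Gclc probe set, -0.095 to 0.059 for the brighter Gclc probe set, -0.029 to 0.021 for Gclm and -0.0042 to 0.027 for Gstp1. In the slope on Ptgds within groups, the values ran from -0.0057 to 0.17 for Ephx1, -0.21 to 0.14 for the dimmer Gclc probe set, -0.20 to 0.21 for the brighter Gclc probe set and -0.027 to 0.22 for Gclm. In the correlation with Ptgds, the values ran from -0.60 to 0.32 for the dimmer Gclc probe set, -0.64 to 0.24 for the brighter Gclc probe set, -0.36 to 0.13 for Gclm and -0.066 to 0.69 for Gstp1.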

Other observations

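Slc7a11, the cystine carrier that feeds glutathione synthesis, was chosen after its values were seen. It was 0.24 higher at 2500 ppm (SE 0.19, limma adjusted p = 0.555) and 0.87 higher at 750 ppm (SE 0.19, limma adjusted p = 0.201), so neither difference was called. Nqo2, also chosen after its values were seen, had a slope on Ptgds among arrays of the same group of 0.66 (SE 0.10, limma adjusted p = 0.0515).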
